A study of Homo sapiens with 12 samples.

Results

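The antisense long noncoding RNAs measured here are 706 genes whose annotated symbol ends in -AS1, of 19775 genes read on Affymetrix HG-U133 Plus 2.0 arrays. They were chosen by name alone, as every probe set annotated to a single gene with such a symbol, and each gene was read by the probe set of highest mean over all 12 arrays. A sense gene of the same name without the suffix was measured for 655 of them and not measured here for 51. The arrays came from U937, a human histiocytic lymphoma line used as a model of immature monocytes, transduced with TRIPZ, a Tet-On cassette whose short hairpin RNA, turned on by doxycycline, targets ZXDC1/2. The 4 groups of 3 arrays, labelled biological replicates 1 to 3, were PMA with doxycycline, PMA alone, vehicle with doxycycline, and vehicle alone. Doxycycline was given at 0.5 µg/mL daily for 4 days, and 100 nM PMA or 0.1% DMSO was added after the first 2 days and left for 3 days, as the labels state these times. All groups carried the cassette and were grown in puromycin, and no group with a hairpin against another target was analysed here, so an effect of doxycycline itself and an effect of the hairpin cannot be told apart.

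Antisense RNAs are transcribed from the strand opposite a protein-coding gene or from a start close to that gene's own start, often in the reverse direction. Some act in the nucleus on the chromatin or transcription of their neighbour, some act elsewhere in the cell on microRNAs or proteins, and for most no function is established. PMA is a phorbol ester that activates protein kinase C and drives U937 cells out of the cell cycle into an adherent, macrophage-like state. ZXDC is a zinc finger protein that takes part in MHC class II gene transcription and in myeloid differentiation.

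How closely an antisense start lies to the start of its sense gene is visible in the sequence. RefSeq start sites (GRCh38.p14) allowed 433 pairs to be placed, and windows of 250 bases before to 50 bases after the start were available for 531 of the 706 antisense genes. In 107 pairs the starts diverged, within 1000 bases of each other and pointing apart, and in 82 the starts overlapped head to head, so that each transcript runs over the other's start. In 150 pairs the antisense RNA started inside the sense gene and in 94 outside it. The windows of 6 antisense genes and 1 sense gene are shown because their pairs differ in how they responded to PMA although they share bases of a window. Capitals mark the bases shared with the window of the sense gene. RUSC1-AS1 and RUSC1 moved in opposite directions, and 191 bases are shared (chr1:155323796-155324095, minus strand, for RUSC1-AS1, and chr1:155323687-155323986, plus strand, for RUSC1).
RUSC1-AS1: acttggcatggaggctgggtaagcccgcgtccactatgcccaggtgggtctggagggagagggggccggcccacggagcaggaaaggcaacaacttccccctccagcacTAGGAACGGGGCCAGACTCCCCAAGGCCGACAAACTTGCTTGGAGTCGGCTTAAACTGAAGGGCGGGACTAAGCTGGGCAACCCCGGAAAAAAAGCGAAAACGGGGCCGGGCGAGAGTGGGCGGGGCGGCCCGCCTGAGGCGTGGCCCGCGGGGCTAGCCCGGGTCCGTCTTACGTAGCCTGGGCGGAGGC
RUSC1: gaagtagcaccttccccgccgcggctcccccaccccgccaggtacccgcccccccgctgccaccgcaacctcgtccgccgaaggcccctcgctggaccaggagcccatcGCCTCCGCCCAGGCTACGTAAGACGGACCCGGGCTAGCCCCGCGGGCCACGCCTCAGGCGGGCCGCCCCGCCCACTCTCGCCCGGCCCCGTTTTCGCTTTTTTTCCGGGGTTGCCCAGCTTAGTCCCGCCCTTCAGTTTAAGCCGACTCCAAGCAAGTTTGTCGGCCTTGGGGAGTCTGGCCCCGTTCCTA

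DICER1-AS1 and DICER1 were also called in opposite directions, and their windows share 258 bases (chr14:95157438-95157737, plus strand).
DICER1-AS1: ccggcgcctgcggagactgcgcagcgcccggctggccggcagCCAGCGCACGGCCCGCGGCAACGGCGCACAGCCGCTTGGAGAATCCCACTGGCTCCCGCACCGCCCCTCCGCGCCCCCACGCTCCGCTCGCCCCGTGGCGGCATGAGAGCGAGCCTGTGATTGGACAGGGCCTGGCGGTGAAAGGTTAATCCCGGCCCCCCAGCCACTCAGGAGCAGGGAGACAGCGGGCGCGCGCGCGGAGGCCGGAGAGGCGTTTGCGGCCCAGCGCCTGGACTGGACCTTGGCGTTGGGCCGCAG

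RFX5-AS1 (chr1:151346760-151347059, plus strand) and PSMB8-AS1 (chr6:32843836-32844135, plus strand) fell together with their sense genes, with 110 and 138 shared bases. ATP2B1-AS1 (chr12:89708705-89709004, plus strand) rose together with ATP2B1, with 216 shared bases.
RFX5-AS1: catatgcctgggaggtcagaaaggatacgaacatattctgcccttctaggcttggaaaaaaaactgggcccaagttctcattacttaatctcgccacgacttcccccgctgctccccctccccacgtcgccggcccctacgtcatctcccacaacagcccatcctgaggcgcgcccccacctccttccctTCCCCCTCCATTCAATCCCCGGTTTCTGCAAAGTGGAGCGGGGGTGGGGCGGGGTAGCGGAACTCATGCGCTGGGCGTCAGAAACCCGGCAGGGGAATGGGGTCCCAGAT
PSMB8-AS1: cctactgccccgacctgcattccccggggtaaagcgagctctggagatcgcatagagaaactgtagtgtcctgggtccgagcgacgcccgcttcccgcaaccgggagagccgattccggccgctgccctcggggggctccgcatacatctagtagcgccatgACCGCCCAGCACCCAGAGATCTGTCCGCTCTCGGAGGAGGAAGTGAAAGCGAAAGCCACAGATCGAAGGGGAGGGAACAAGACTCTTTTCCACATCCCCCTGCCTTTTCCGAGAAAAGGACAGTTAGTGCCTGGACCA
ATP2B1-AS1: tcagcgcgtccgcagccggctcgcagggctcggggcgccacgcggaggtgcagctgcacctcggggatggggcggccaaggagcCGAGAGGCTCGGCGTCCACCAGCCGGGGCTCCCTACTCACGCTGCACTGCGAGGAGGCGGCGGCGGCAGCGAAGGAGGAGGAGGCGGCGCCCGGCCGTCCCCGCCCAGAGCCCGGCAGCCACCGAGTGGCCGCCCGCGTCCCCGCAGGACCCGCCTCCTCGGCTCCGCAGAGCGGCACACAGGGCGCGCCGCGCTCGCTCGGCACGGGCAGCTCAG

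ATP2A1-AS1 (chr16:28879872-28880171, minus strand) fell while ATP2A1 did not pass the test, with 221 shared bases.
ATP2A1-AS1: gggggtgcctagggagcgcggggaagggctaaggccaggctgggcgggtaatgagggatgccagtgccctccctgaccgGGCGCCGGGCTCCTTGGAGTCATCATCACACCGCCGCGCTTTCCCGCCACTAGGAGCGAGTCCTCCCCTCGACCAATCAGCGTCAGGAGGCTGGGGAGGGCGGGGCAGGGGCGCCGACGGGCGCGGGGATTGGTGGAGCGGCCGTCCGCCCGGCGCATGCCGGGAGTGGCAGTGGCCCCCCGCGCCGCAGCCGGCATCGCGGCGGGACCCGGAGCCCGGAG

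All 7 printed windows hold the SP-type letters GGGCGG at least once, on the printed strand or on the opposite one. Over the 615 windows of antisense genes, GGGCGG stood on either strand in 46.5%, against 45% of the 35116 windows of all genes. The AP-1 letters TGANTCA, where N is any base, stood in 6.99% of the antisense windows and in 7.71% of all windows. The CRE letters TGACGTCA stood in 2.6% of antisense windows and 1.85% of all windows, the ETS letters CCGGAAGT in 3.74% of antisense windows and 4.14% of all windows, and the E2F letters TTTCCCGC in 1.63% of both. The palindromic NRF1 motif stood in 1.14% of antisense windows and in 1.24% of all windows, and the YY1 motif in 0.488% and 0.849%. Among the printed windows the E2F letters occur once, in that of ATP2A1-AS1. A match to such letters describes the sequence and is not a measured binding site.

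Before the antisense genes were compared, the arrays were checked. ZXDC, the target of the hairpin, had signals of 7.39, 7.43 and 7.02 in PMA with doxycycline against 7.96, 7.89 and 7.51 in PMA alone, and of 7.16, 7.25 and 7.44 in vehicle with doxycycline against 8.01, 7.63 and 7.69 in vehicle alone. Here and below a signal is a log2 RMA value. ZXDC was lower with doxycycline in all 6 same-numbered pairs, and its mean difference was -0.50 (exact permutation test within agents, two-sided, p = 0.005, the smallest that the 400 relabelings allow). Of the myeloid markers 6 of 7 measured had a mean of 5 or more and MPO, a granule peroxidase, was at 4.26, while the epithelial markers EPCAM, CDH1 and KRT19 all had means under 5. The T cell markers had means of at most 5.30, the B cell marker CD79A had 6.11 while MS4A1 was under 5, the single erythroid marker measured, ALAS2, had 5.16, and the fibroblast markers COL1A1, COL1A2 and DCN had means of 5.02 to 7.30. The actin probes showed a larger excess of 3′ over 5′ signal on the 4 arrays numbered 1, 1.99 to 2.72, than on the other 8, 0.714 to 1.64, and each group held 1 such array. In cultures measured in bulk, fewer cells that make an RNA and less of it per cell cannot be told apart.

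Most of the antisense genes gave little signal. Over the 12 arrays 446 of the 706 had a mean under 5 and are called dim here, a share of 63.2% against 33.5% of all genes. The median of the mean signals was 4.41 over the antisense genes and 6.12 over all genes. The limit fell between ACVR2B-AS1 and KIF23-AS1, with means that lay -0.018 and -0.0030 from it, and ZNF503-AS1 and PRRX2-AS1, whose means lay 0.00023 and 0.0046 above it. At the top of the range, 18 antisense genes had a mean of 8 or more. OIP5-AS1, known in zebrafish and mammals as cyrano, was the brightest at 11.46, followed by RUSC1-AS1 at 10.47, FGD5-AS1 at 10.35, GABPB1-AS1 at 10.35 and WAC-AS1 at 10.18. Signals of different probe sets do not rank RNA amounts, since probes differ in how strongly they bind.

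PMA changed a smaller share of antisense genes than of all genes, and those that changed mostly fell. Without doxycycline 97 of the 706 antisense genes were called at an adjusted p under 0.05 in limma (13.7%), 27 higher and 70 lower. Over all genes 31.7% were called, 12.7% higher and 18.9% lower. The same fit called 233 of the 655 sense partners (35.6%), 107 higher and 126 lower. Arrays of both groups did not overlap for 184 antisense genes (26.1%), against 41.8% of all genes. A change of 1 or more on the log2 scale was called upward for 8 antisense genes (1.13%) and downward for 22 (3.12%). The shares of all genes were 4.54% and 6.27%. The median difference was 0.02 over the antisense genes and 0.01 over all genes. On the arrays numbered 2 and 3 alone, 43 antisense genes were called higher.

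The share called differed by signal level. Among antisense genes with a mean under 5, 4.71% were called, against 5.93% of all genes in that band. In the band from 5 to 6 the shares were 20.4% of antisense genes and 18.3% of all genes, and from 6 to 7 they were 30.8% and 38.8%. From 7 to 8, 20 of 30 antisense genes were called (66.7%, against 54.8% of all genes), of which 17 were lower. Among the 18 brightest, 6 were called (33.3%, against 56.3% of all genes), 3 in each direction. The share of antisense genes called was thus lower than that of all genes under 5, from 6 to 7 and at 8 or more, and higher in the other 2 bands. No test of the difference between antisense genes and other genes was made.

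**Figure D1:**
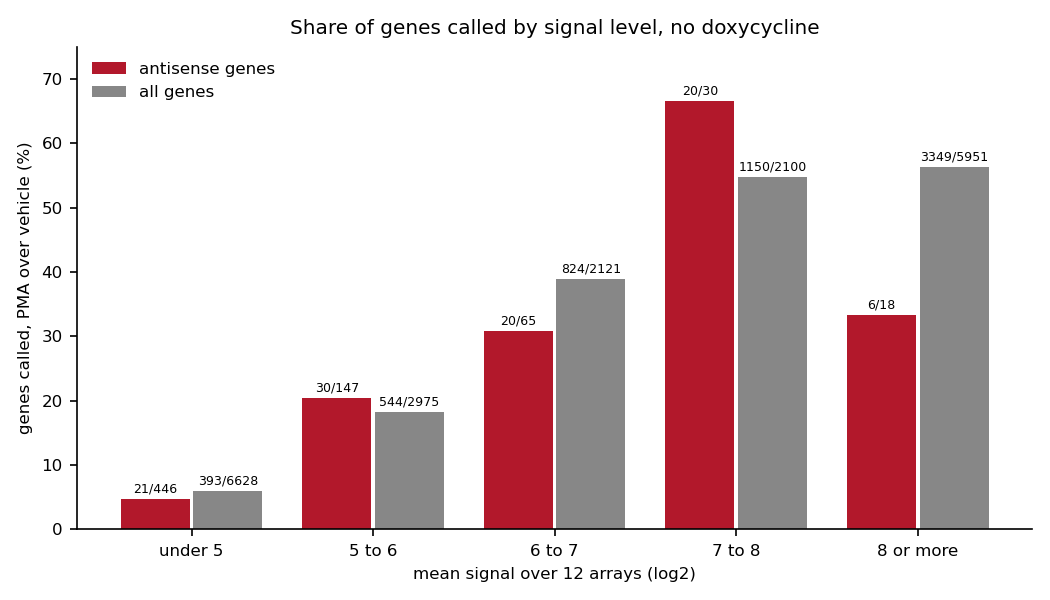
Bars give the percentage of genes called in PMA over vehicle without doxycycline (vertical axis) in 5 bands of mean log2 signal over the 12 arrays (horizontal axis), for antisense genes (red) and for all genes, antisense ones included (grey), with called and total genes above each bar. The share of antisense genes called runs from 4.71% under 5 to 66.7% between 7 and 8 and is 33.3% at 8 or more.

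The rise of SUGCT-AS1 was the largest. SUGCT encodes a mitochondrial enzyme that transfers coenzyme A to glutarate, and its antisense neighbour had signals of 9.31, 10.05 and 9.90 in PMA against 4.02, 3.46 and 3.26 in vehicle. It was thus dim on all 3 vehicle arrays and bright on all 3 PMA arrays, with no overlap. The difference was 6.18 (SE 0.33, adjusted p = 7.84e-09). The sense gene went the other way, with 5.07, 5.13 and 5.50 in PMA against 6.14, 5.99 and 6.17 in vehicle, a difference of -0.87 (SE 0.21, adjusted p = 0.00505). With doxycycline in both groups, SUGCT-AS1 had 7.90, 9.41 and 9.18 in PMA against 3.29, 3.68 and 3.33 in vehicle, a difference of 5.39 (SE 0.33). Each of these genes was read by 1 probe set.

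ITGB2-AS1 and ZMIZ1-AS1 rose together with their sense genes. ITGB2 encodes the beta-2 chain of the leukocyte integrins, through which monocytes adhere. ITGB2-AS1 had signals of 8.63, 8.85 and 8.78 in PMA against 6.35, 5.74 and 5.98 in vehicle, a difference of 2.73 (SE 0.23, adjusted p = 6.47e-07). ITGB2 itself had 13.25, 13.58 and 13.48 in PMA against 11.61, 11.37 and 11.49 in vehicle, a difference of 1.95. Both members of the pair were higher on every PMA array than on any vehicle array. ITGB2-AS1 was read by a probe set with the _s_at suffix, whose probes can match more than 1 transcript, and its other probe set rose by 1.28. ZMIZ1, a coactivator of the PIAS family, and its antisense gene showed the same pattern. ZMIZ1-AS1 had 9.16, 8.76 and 8.33 in PMA against 6.29, 6.30 and 6.42 in vehicle (difference 2.42, SE 0.17, adjusted p = 1.35e-07), and ZMIZ1 rose by 1.36.

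EP300-AS1 fell beside a sense gene that did not pass the test. EP300 encodes the histone acetyltransferase p300. EP300-AS1 had signals of 4.09, 4.05 and 3.90 in PMA against 6.36, 6.55 and 6.65 in vehicle, a difference of -2.51 (SE 0.19, adjusted p = 2.97e-07). EP300 had 8.25, 7.85 and 7.21 in PMA against 7.91, 7.86 and 8.06 in vehicle, a difference of -0.17 (SE 0.19, adjusted p = 0.575). The antisense signal thus dropped to the dim range on all 3 PMA arrays, while the arrays of both groups overlapped for the sense gene. With doxycycline in both groups EP300-AS1 differed by -1.99. ATP2A1-AS1, beside a calcium pump gene of the muscle endoplasmic reticulum, had 4.78, 4.95 and 5.31 in PMA against 6.85, 7.33 and 7.30 in vehicle, and fell by 2.15 (SE 0.22). ATP2A1 was dim, with group means of 4.34 in PMA and 4.52 in vehicle (difference -0.18, adjusted p = 0.4). PRKAR1B-AS1 was the counterpart among the rises, with 6.64, 6.57 and 7.15 in PMA against 5.21, 5.35 and 5.03 in vehicle (difference 1.59, SE 0.23). PRKAR1B, a regulatory subunit of protein kinase A, differed by -0.06 (SE 0.11, adjusted p = 0.735).

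The remaining 6 of the 12 largest changes were falls in which the sense gene fell too. TMPO encodes the lamina-associated polypeptide 2 proteins of the nuclear envelope and nucleoplasm. TMPO-AS1 had 4.04, 4.83 and 4.76 in PMA against 6.50, 7.10 and 7.06 in vehicle (difference -2.34, SE 0.23), and TMPO differed by -0.79. RFX5, a subunit of the factor that binds the X box of MHC class II promoters, fell by 1.06. RFX5-AS1 had 4.17, 3.82 and 4.46 in PMA against 6.13, 6.25 and 6.03 in vehicle (difference -1.98, SE 0.18). For both antisense genes every PMA array lay in the dim range and every vehicle array above it.

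PSMB8 is a catalytic subunit of the immunoproteasome. PSMB8-AS1 had 6.86, 6.94 and 7.12 in PMA against 8.77, 8.72 and 9.04 in vehicle (difference -1.87, SE 0.16), beside a PSMB8 difference of -0.59. Its second probe set, which was dim, differed by -0.05 and was not called. PRKCQ encodes protein kinase C theta, one of the kinases that phorbol esters activate. PRKCQ-AS1 had 6.61, 6.08 and 6.39 in PMA against 7.83, 7.99 and 8.22 in vehicle (difference -1.65, SE 0.17), and PRKCQ differed by -1.48. Its other 2 probe sets, with differences of -0.81 and -0.50, were also called lower.

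SPART encodes spartin, a protein of lipid droplets and endosomes. SPART-AS1 had 3.10, 3.30 and 3.37 in PMA against 5.16, 5.40 and 5.14 in vehicle (difference -1.98, SE 0.13), and its mean of 4.16 over all arrays marks it as dim. NIFK is a nucleolar protein that interacts with the proliferation marker Ki-67. NIFK-AS1 had 7.08, 6.86 and 6.77 in PMA against 8.41, 8.57 and 8.50 in vehicle (difference -1.59, SE 0.14). Its second probe set, with a mean of 5.09, differed by -0.38 and was not called (adjusted p = 0.310, over all probe sets). SPART and NIFK each differed by -0.72, and NIFK was no longer called without PMA replicate 2 (adjusted p = 0.0523). These 12 antisense genes were picked as the largest called changes, so their small adjusted p, 7.84e-09 to 0.0001, and their arrays, which overlapped in none of the 12, follow in part from that choice.

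**Figure D2:**
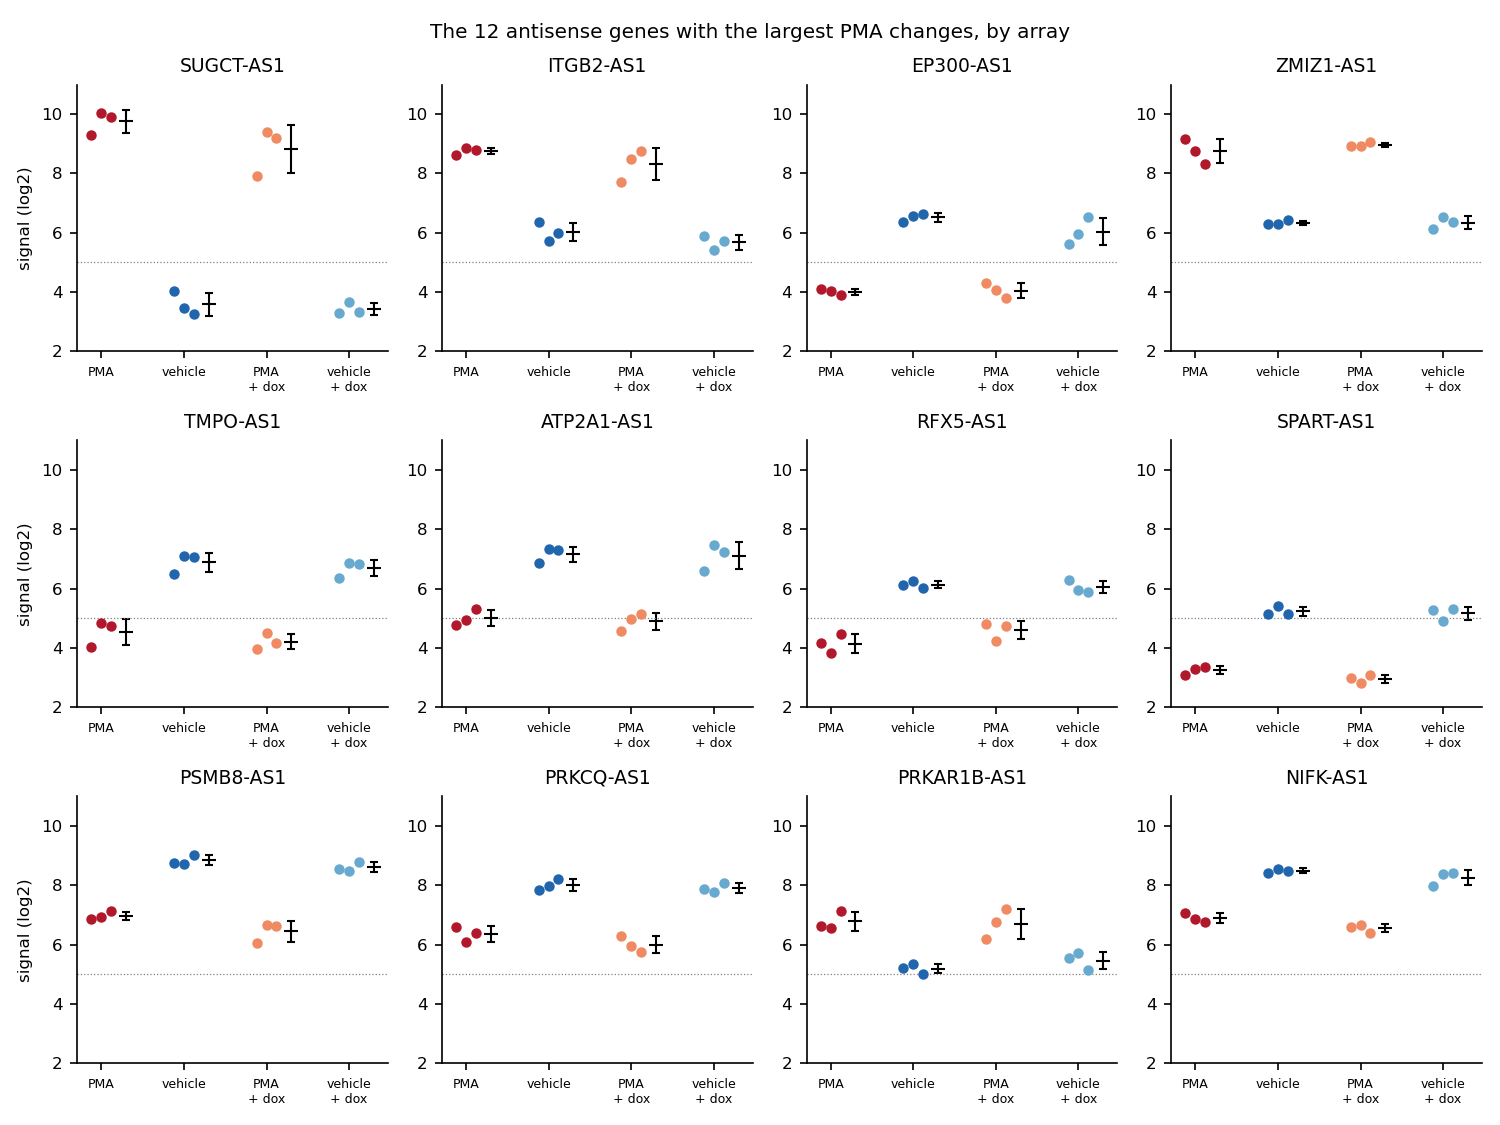
Each panel shows the log2 signal (vertical axis) of 1 of the 12 antisense genes with the largest PMA changes on every array, for PMA, vehicle, PMA with doxycycline and vehicle with doxycycline from left to right. Points are arrays in the order of replicates 1 to 3, the black mark is the mean ± SD (n = 3), and the dotted line is the dim limit of 5. In SUGCT-AS1 the PMA arrays lie between 9.31 and 10.05 and the vehicle arrays between 3.26 and 4.02.

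The other called antisense genes moved less. TTC28-AS1, FOXP4-AS1, TRAM2-AS1, IDH1-AS1, WARS2-AS1, SP2-AS1, TSPOAP1-AS1, ASH1L-AS1, MCM3AP-AS1, NR2F1-AS1, BAZ2B-AS1, EPHA1-AS1, DHRS4-AS1 and UBAC2-AS1 completed the 22 that fell by 1 or more. Of these 14, 8 fell beside sense genes that were not called, FOXP4-AS1 (-1.52), TRAM2-AS1 (-1.38), IDH1-AS1 (-1.33), SP2-AS1 (-1.25), TSPOAP1-AS1 (-1.22), MCM3AP-AS1 (-1.14), EPHA1-AS1 (-1.03) and UBAC2-AS1 (-1.0045). The sense gene was lower too for TTC28-AS1, WARS2-AS1 and NR2F1-AS1, higher for BAZ2B-AS1, and not measured here for ASH1L-AS1 and DHRS4-AS1. A further 36 fell by 0.5 to 1, among them GABPB1-AS1, PNISR-AS1, ENTPD1-AS1, PXN-AS1 and HMMR-AS1, and 12 by less than 0.5. The rises beyond those above were PAPLN-AS1 at 1.03, ATP2B1-AS1 at 1.06, ST20-AS1 at 1.18 and RUSC1-AS1 at 1.24. Another 11 antisense genes rose by 0.5 to 1, among them ID2-AS1, MSC-AS1, KCNJ5-AS1, CCDC18-AS1 and DLGAP1-AS1, and 8 by less than 0.5.

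Of the 97 called antisense genes 21 were dim over the 12 arrays, and for 15 both group means lay under 5. Where a called antisense gene had other probe sets, these did not always follow. The 37 such genes had 53 other probe sets, of which 33 were dim. In a fit over all probe sets annotated to 1 gene, 18 of the 53 were called in the same direction, 1 in the opposite direction and 34 not. GABPB1-AS1 was read by 6 probe sets, of which the brightest 4 had differences of -0.98, -1.08, -0.98 and -0.85, all called. Probe sets shared by several genes, an -AS1 gene among them, numbered 19 and were kept apart. None of those 19 was called higher and 3 were called lower.

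Of the 5 brightest antisense genes RUSC1-AS1 rose, GABPB1-AS1 fell and the other 3 did not pass the test. OIP5-AS1 had 11.64, 11.49 and 11.55 in PMA against 11.43, 11.34 and 11.34 in vehicle, a difference of 0.19 (SE 0.10, adjusted p = 0.196). OIP5, a protein that helps load CENP-A at centromeres, had 7.78, 7.38 and 7.40 in PMA against 9.69, 10.24 and 10.09 in vehicle, and fell by 2.48 (SE 0.20, adjusted p = 3.59e-07). FGD5-AS1 differed by 0.10 and WAC-AS1 by -0.04, and neither was called. GABPB1-AS1 averaged 9.94 ± 0.59 in PMA and 10.93 ± 0.29 in vehicle (SD, n = 3 each), a difference of -0.98 beside one of -0.70 in GABPB1, a subunit of the ETS-family factor GABP.

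Of the 655 pairs, both genes were called in 40, the antisense gene alone in 47, the sense gene alone in 193 and neither in 375. The antisense gene was thus called in 17.2% of the 233 pairs with a called sense gene, in 11.1% of the 422 others and in 13.3% of all pairs. It was dim in 123 of the 233 and in 289 of the 422, so these shares do not compare pairs of like signal. Of the 40, 31 moved in the same direction, 23 down and 8 up, and 9 in opposite directions. The 9 depended on the processing and on single arrays, with 15 under a replicate block over all groups, 14 on arrays numbered 2 and 3 or after cyclic loess, and 5 without PMA replicate 3 or without _s_at and _x_at probe sets. The correlation of the differences was 0.15 over the 655 pairs and 0.17 over the 243 whose antisense gene was not dim, given as a description, since all points come from the same 6 arrays and pairs are not replicates. By arrangement, the antisense gene was called in 24 of 107 pairs with divergent starts, 15 of 82 with overlapping starts, 12 of 150 in which it started inside the sense gene and 16 of 94 in which it started outside. Beside 13.3% of all pairs, these shares were 22.4%, 18.3%, 8% and 17% in the same order. The antisense gene was not dim in 48, 35, 38 and 47 of these pairs, so the arrangements also differed in signal. Both genes were called in 13 divergent pairs, 10 of them in the same direction, and in 8 overlapping pairs, 6 of them in the same direction. In the pairs with an antisense start inside or outside the sense gene, 4 and 4 were both called, and all 8 moved in the same direction, which was not so on the arrays with doxycycline. The remaining 222 pairs could not be placed. Both genes were called in 11 of these, 7 in the same direction and 4 in opposite ones. No test compared the arrangements.

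**Figure D3:**
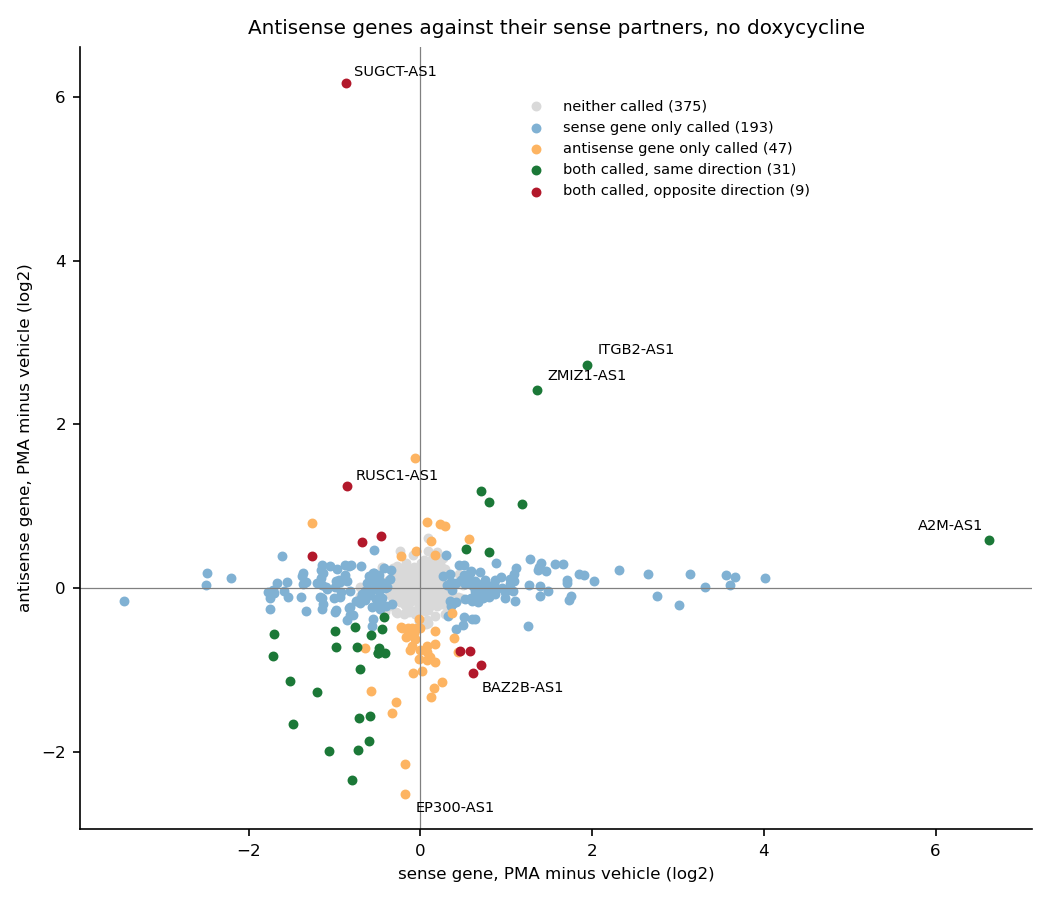
Each point is 1 of 655 pairs, with the PMA minus vehicle difference of the sense gene (horizontal axis, log2) and of the antisense gene (vertical axis, log2) without doxycycline, coloured by which of the 2 was called. Of the 233 called sense genes 193 stand beside an uncalled antisense gene, and 9 pairs were called in opposite directions, SUGCT-AS1 at 6.18 among them.

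In 193 of the 233 pairs with a called sense gene the antisense gene was not called (82.8%, against 86.7% of all 655 pairs), and 114 of those 193 antisense genes were dim. The 10 pairs with the largest sense changes, 5 in each direction, were chosen after their values were seen. In 8 of the 10 the antisense gene was dim, so that little could be read from it. A2M, which encodes the protease inhibitor alpha-2-macroglobulin, rose by 6.62, and A2M-AS1 rose by 0.59 (adjusted p = 0.00786) within the dim range, with 4.06, 3.62 and 3.43 in PMA against 2.97, 3.11 and 3.27 in vehicle. GSN, the actin-severing protein gelsolin, rose by 4.02, CDKN2B, the cell cycle inhibitor p15, by 3.67, CADM1, a cell adhesion molecule, by 3.60 and SLIT3, a secreted guidance ligand, by 3.56. Their antisense genes, all dim with means of 2.73 to 4.37, differed by 0.12, 0.14, 0.04 and 0.16 in the same order, and none was called. Among falling sense genes, MSRB3, a methionine sulfoxide reductase (-3.45), IGFBP7, an insulin-like growth factor binding protein (-2.49), and KIF23, a kinesin of cytokinesis (-2.20), stood beside uncalled differences of -0.15 in MSRB3-AS1, 0.04 in IGFBP7-AS1 and 0.13 in KIF23-AS1, all 3 dim. The 2 antisense genes that were not dim were OIP5-AS1, described above, and ZNF22-AS1, with a mean of 5.60, which differed by -0.04 (SE 0.21) beside a fall of 1.77 in ZNF22, a zinc finger protein.

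Among the 9 opposite pairs, the antisense gene was higher and the sense gene lower in 5. RUSC1-AS1 was the brightest of these. RUSC1 is a signalling adaptor with RUN and SH3 domains. RUSC1-AS1 had 11.43, 10.75 and 10.28 in PMA against 9.35, 9.56 and 9.82 in vehicle, a difference of 1.24 (SE 0.24, adjusted p = 0.000997). RUSC1 had 7.11, 7.32 and 7.03 in PMA against 7.79, 8.07 and 8.16 in vehicle, a difference of -0.85 (SE 0.12, adjusted p = 8.8e-05). No PMA array overlapped a vehicle array in either gene, although the 191 bases in capitals above lie in both windows. The second probe set of RUSC1-AS1 differed by 0.94 and was not called (adjusted p = 0.124, over all probe sets).

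The other 4 pairs with a higher antisense and a lower sense signal were SUGCT, described above, SSBP3, ALKBH3 and PDE9A. SSBP3-AS1 rose by 0.56 and SSBP3, a single-stranded DNA-binding protein, differed by -0.68 (adjusted p = 0.0305). The SSBP3 call was lost without each of 4 single arrays and after cyclic loess. SSBP3 had 3 probe sets, and with their mean in place of the brightest its difference was -0.06 (adjusted p = 0.756), so the opposite direction rests on the brightest one. SSBP3-AS1 was read by an _x_at probe set, whose probes can bind other transcripts. ALKBH3-AS1 differed by 0.40 within the dim range, with 4.16, 4.22 and 4.39 in PMA against 3.85, 3.90 and 3.82 in vehicle, beside a difference of -1.26 in ALKBH3, a DNA and RNA demethylase (adjusted p = 3.59e-07). The ALKBH3-AS1 call was lost without PMA replicate 3 or either of vehicle replicates 1 and 3, with adjusted p between 0.0528 and 0.0895. Its other probe set differed by 0.017 and was not called. With the mean of its probe sets the difference was 0.21 (adjusted p = 0.145). PDE9A-AS1 was also dim, at 3.77, 3.64 and 3.998 in PMA against 2.80, 3.21 and 3.48 in vehicle (difference 0.64), and PDE9A, a cyclic GMP phosphodiesterase, differed by -0.46. PDE9A was read by an _s_at probe set, and its other probe set differed by 0.049 (adjusted p = 0.786).

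In 4 pairs the antisense gene was lower and the sense gene higher. BAZ2B-AS1 had 5.57, 5.26 and 5.23 in PMA against 6.52, 6.34 and 6.31 in vehicle (difference -1.04, SE 0.14, adjusted p = 5.99e-05). BAZ2B, a bromodomain protein, had 8.89, 8.62 and 8.79 in PMA against 8.26, 8.05 and 8.14 in vehicle (difference 0.61, SE 0.12, adjusted p = 0.00129). The arrays of both groups did not overlap in either gene. TOB1-AS1 fell by 0.94 within the dim range and TOB1, an antiproliferative protein, rose by 0.71. DMTF1-AS1 fell by 0.77 and DMTF1, a transcription factor that activates ARF, rose by 0.47, with a call that was lost without any 1 of 6 arrays (adjusted p between 0.0502 and 0.157). DICER1-AS1 had 5.73, 5.33 and 4.97 in PMA against 6.68, 5.73 and 5.90 in vehicle (difference -0.76, SE 0.27, adjusted p = 0.0461), with overlapping arrays. DICER1, the enzyme that cuts microRNA precursors, rose by 0.58 (adjusted p = 0.00772). Without vehicle replicate 1 the difference in DICER1-AS1 was -0.47 (adjusted p = 0.214), and 7 other single arrays also ended its call when left out. The DICER1-AS1 call was also lost with the mean of its probe sets (difference -0.43, adjusted p = 0.0602) and when all probe sets were tested (adjusted p = 0.0553).

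The PMA comparison on the arrays with doxycycline gave a like picture. Its group means share no array with those above. Its tests are not separate, because the joint fit pooled each gene's variance over all groups and gave both comparisons the same SE. There 112 of the 706 antisense genes were called (15.9%), 37 higher and 75 lower, against 32.5% of all genes, 13% higher and 19.5% lower. Without vehicle with doxycycline replicate 3 the number called higher was 20. Calls of 1 or more on the log2 scale numbered 6 upward (0.850%) and 25 downward (3.54%), beside 4.69% and 6.88% of all genes. Arrays of both groups did not overlap for 182 antisense genes (25.8%, against 42.5% of all genes). Called in both comparisons were 78 antisense genes, 80.4% of those called without doxycycline and 69.6% of those called with it, and all 78 kept their direction. The overlap of calls is in part built in by the shared SE, while the differences come from separate arrays. Of the 131 called in either comparison, 43 were higher in both, 81 lower in both and 7 differed in sign. Over the 706 antisense genes the differences of both comparisons correlated at 0.92, and over all genes at 0.97, as a description of 2 sets of 6 arrays.

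**Figure D4:**
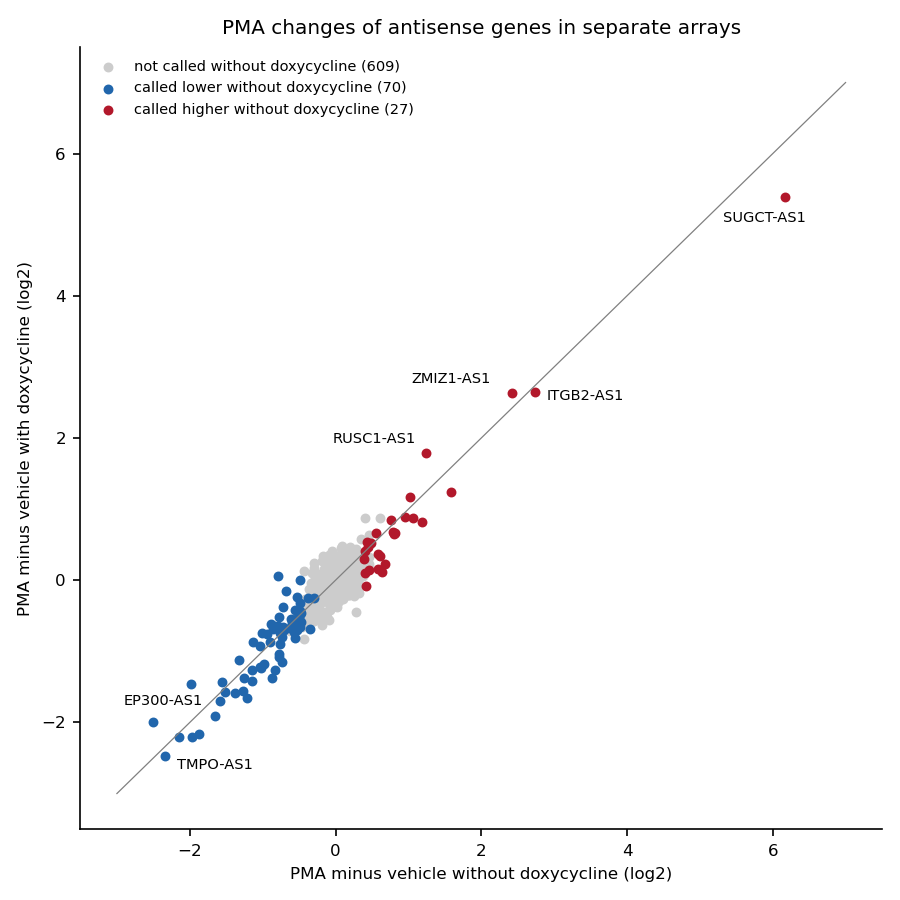
Each point is 1 of 706 antisense genes, with the PMA minus vehicle difference (log2) without doxycycline on the horizontal axis and with doxycycline on the vertical axis, coloured by the call without doxycycline; the line marks equal differences. Points lie along the line, and SUGCT-AS1 at 6.18 and 5.39 is far from the rest.

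With doxycycline 46 pairs were both called, 30 in the same direction and 16 in opposite ones. Of those with an antisense start inside the sense gene 10 were both called, 3 of them in opposite directions, and of those with a start outside it 5 were, 2 of them in opposite directions. The pairs of SUGCT, RUSC1, SSBP3, DMTF1 and TOB1 were opposite in both comparisons, 5 of the 9 without doxycycline and of the 16 with it, while 22 pairs moved together in both, of 31 and 30. RUSC1-AS1 rose by 1.79 (SE 0.24) with doxycycline, with 12.01, 11.53 and 11.36 in PMA against 9.94, 9.85 and 9.74 in vehicle, and RUSC1 differed by -0.90. ALKBH3-AS1 differed by 0.10 and PDE9A-AS1 by 0.12 there, and neither was called. DICER1-AS1 differed by -0.71 (adjusted p = 0.0628), close to its difference without doxycycline, and BAZ2B differed by 0.32 (adjusted p = 0.0572).

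Changes of antisense genes with doxycycline were read from doxycycline over none within each agent, in the fit without pairs. In simulated data for PMA over vehicle, with a small share of all genes changed, that fit called 26% of log2 changes of 0.5 and 80% of changes of 1. With Benjamini-Hochberg adjustment such shares depend on how many genes change, so they do not carry over to the doxycycline comparisons. The fit did not call ZXDC in either agent, so a lack of calls does not show that antisense genes were unchanged. In PMA 0 of the 706 antisense genes were called in this limma fit, against 0.00506% of all genes, the single gene being HES1, a Notch target repressor. At an unadjusted p under 0.05 there were 53 antisense genes, 7.51% against 6.14% of all genes. In vehicle 0 antisense genes were called, as were 0% of all genes, and 33 had an unadjusted p under 0.05 (4.67% against 2.58% of all genes). The difference between both doxycycline effects, tested as an interaction, gave 0 calls (0% of all genes) and 22 antisense genes at an unadjusted p under 0.05 (3.12% against 2.62%). A fit with same-numbered arrays as pairs called 1 antisense gene in PMA, beside 0.268% of all genes. It called 0 genes in vehicle and 1 gene in the interaction, which was not an antisense gene.

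RUSC1-AS1 showed the largest rise with doxycycline in PMA among the antisense genes. It had 12.01, 11.53 and 11.36 in PMA with doxycycline against 11.43, 10.75 and 10.28 in PMA alone, a difference of 0.81 (SE 0.24, adjusted p = 0.529). It was higher with doxycycline in all 3 same-numbered pairs, though the arrays of both groups overlapped. By correlation only the replicate 1 pair in PMA stood apart from arrays of other numbers. With the 3 same-numbered pairs as a block the SE was 0.14 and RUSC1-AS1 was called (adjusted p = 0.0477). It was the 1 antisense gene among 53 genes called by that fit (0.268% of all genes). In vehicle it had 9.94, 9.85 and 9.74 with doxycycline against 9.35, 9.56 and 9.82 without (difference 0.27, adjusted p = 1), and the interaction of 0.55 was not called in either fit. RUSC1 differed by 0.05 with doxycycline in PMA. Both this gene and SUGCT-AS1 were singled out here after their values were seen. SUGCT-AS1 had the largest fall among antisense genes, with 7.90, 9.41 and 9.18 in PMA with doxycycline against 9.31, 10.05 and 9.90 in PMA alone (difference -0.93, adjusted p = 0.69, and 0.0725 with the pairs as a block).

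**Figure D5:**
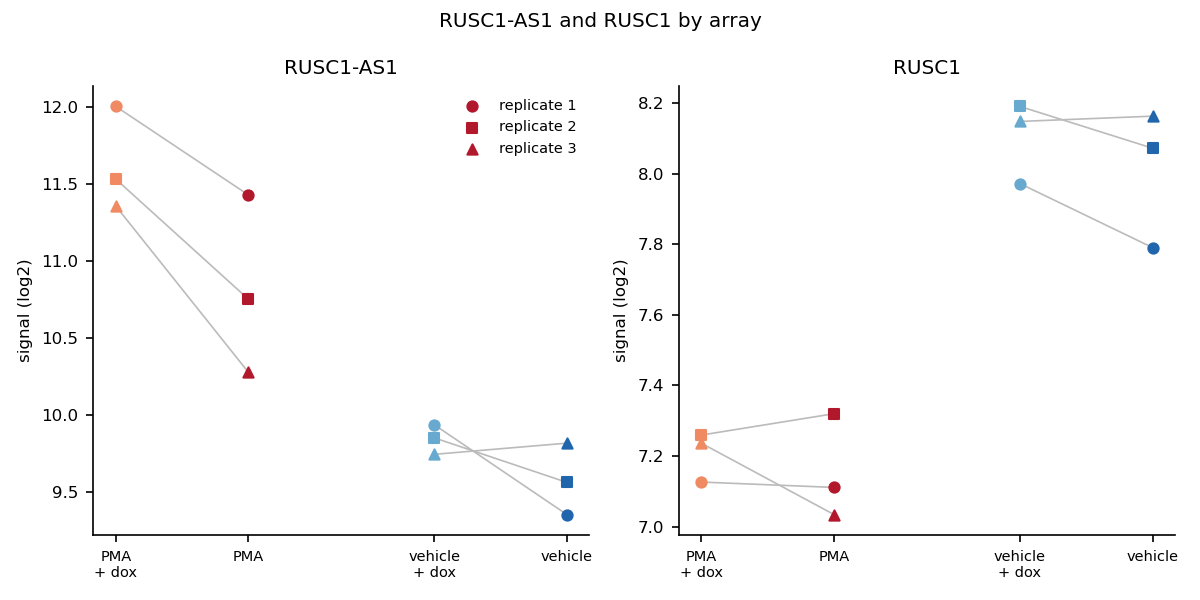
Log2 signal (vertical axes, which do not start at 0 and differ in range) of RUSC1-AS1 and RUSC1 on each array, for PMA with doxycycline, PMA, vehicle with doxycycline and vehicle from left to right. Symbols give the replicate number and grey lines join same-numbered arrays with and without doxycycline. RUSC1-AS1 lies above 10 on all PMA arrays and below 10 on all vehicle arrays, and RUSC1 lies below 7.5 on all PMA arrays and above 7.5 on all vehicle arrays.

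The antisense genes with the smallest p in each doxycycline comparison were not called. In PMA these were TMEM108-AS1 (4.77 ± 0.26 with doxycycline and 4.15 ± 0.25 without, difference 0.62), ZNF407-AS1 (8.38 ± 0.05 and 8.85 ± 0.25, difference -0.47) and PDCD4-AS1 (4.41 ± 0.15 and 4.92 ± 0.07, difference -0.52), as mean ± SD of 3 arrays each. Their adjusted p lay between 0.432 and 0.439, and between 0.0948 and 0.128 with the pairs as a block. In vehicle the smallest p belonged to ENTPD3-AS1 (difference -0.47), DIAPH1-AS1 (0.47) and RBM26-AS1 (-0.44), the first 2 of them dim. For the interaction it belonged to ZEB1-AS1, TDRD6-AS1 and EPN2-AS1, all dim, with differences of 0.85, -0.73 and -0.50. ZEB1-AS1, beside the gene of a repressor of epithelial genes, had 3.22, 3.25 and 2.70 in PMA with doxycycline, 2.45, 2.52 and 2.72 in PMA alone, 2.92, 2.91 and 3.18 in vehicle with doxycycline, and 3.23, 3.18 and 3.65 in vehicle alone. All 12 values are in the dim range, and its adjusted p for the interaction was 1.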

How the data were processed

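RNA of 12 U937 cultures was measured on 12 arrays, 3 in each of 4 groups, after labelling with a 3′ in vitro transcription kit. The deposited values are log2 signals made by the authors with RMA, per the submitters' processing notes; no version or setting is given in the sources used here. No scaling was added. Of 54675 probe sets 41097 paired with 1 gene symbol in the platform annotation, and the one of highest mean stood for each of 19775 genes. The probes' match to either strand was not checked. The 4 group means were fitted jointly in limma 3.58.1 (lmFit, eBayes; R 4.3.3), leaving 8 residual degrees of freedom beside 5.6 from the prior; tests were two-sided, with Benjamini-Hochberg adjustment over all 19775 genes and calls at an adjusted p under 0.05. The ZXDC check enumerated 400 relabelings. The number of arrays limits the precision. Tables were joined in Python 3.11.15.

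The members and lists were chosen with earlier results of these data known. Values by array, or only a mean or difference, are given for the genes that follow. These are the 12 called antisense genes with the largest change whose signal reached 5 in at least 1 group, and every pair called in opposite directions. They also include the 5 brightest, the 2 on either side of a mean of 5, and the 3 with the smallest p in each doxycycline comparison. Exceptions are said to be chosen after their values were seen. Sense genes were matched by symbol, 3 of 655 through an older one. Biotypes from RefSeq were lncRNA for 699 of the 706. The labels number biological replicates 1 to 3. Deviations from group means of same-numbered arrays with and without doxycycline correlated at 0.29 to 0.64 in PMA and at 0.25 to 0.57 in vehicle. They were taken as pairs within an agent in an alternative fit, not in the main one. PMA with doxycycline replicate 3 correlated at 0.39 with PMA replicate 2, and replicate 2 at 0.30 with PMA replicate 3. Their own numbers gave 0.32 and 0.29, so in PMA only the replicate 1 pair stood apart. Same-numbered PMA and vehicle arrays gave -0.01 to 0.16 without doxycycline and 0.06 to 0.20 with it, and were not taken as pairs because neither comparison had every pair over 0.1. Across agents and doxycycline they gave 0.14 to 0.27 (PMA against vehicle with doxycycline) and 0.10 to 0.12 (PMA with doxycycline against vehicle), all over 0.1. Whether all 4 groups shared a replicate effect was not tested. The main PMA counts come from the fit without a replicate block, and a block over all groups was an alternative. The alternatives were replicate blocks, each array left out, arrays numbered 2 and 3 alone, other probe set choices, a filter on dim genes, cyclic loess, a trend in eBayes and updated symbols. The procedure was tested on simulated data for PMA over vehicle without doxycycline in 19775 genes. It called 26% of log2 changes of 0.5, 80% of changes of 1 and 94% of changes of 2, with 11 false calls.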

Additional observations from a re-analysis of the deposited data

How the results depend on the processing

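The count of antisense genes called higher with PMA without doxycycline, 27, was 43 on the arrays numbered 2 and 3 alone, and ran between 22 and 33 when 1 array was left out, while the count called lower, 70, ran between 59 and 73. With doxycycline the counts of 37 higher and 75 lower ran between 20 and 44 and between 61 and 77, the value of 20 without vehicle with doxycycline replicate 3. With a replicate block over all groups they were 29 higher and 76 lower without doxycycline and 46 and 80 with it. Of the 6 arrays in each PMA and vehicle comparison, 4 without doxycycline and 2 with it correlated best with an array of their own number. In PMA with and without doxycycline 3 of 6 did, and 6 of 6 did in the same comparison in vehicle and in both comparisons across agents and doxycycline. The block for pairs within an agent raised the count of antisense genes higher with doxycycline in PMA to 1, RUSC1-AS1, and changed no other call among the antisense genes in the doxycycline comparisons. No antisense gene was called there when any 1 array was left out. Sense partners called ran between 90 and 112 higher and between 109 and 130 lower.

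Pairs moving together, 31, ran between 21 and 35. Pairs moving apart, 9, were 15 with the replicate block, 14 on arrays numbered 2 and 3, 14 after cyclic loess and 5 without _s_at and _x_at probe sets, and ran between 5 and 12 when 1 array was left out, 5 without PMA replicate 3; the cause was not tested. ZXDC with doxycycline was -0.39 on arrays numbered 2 and 3 (exact permutation p = 0.0556, the smallest that its 36 relabelings allow). PDE9A turned to 0.049 without _s_at and _x_at probe sets. Over the genes named with a test, 1366 of 1409 alternative values kept direction and side of the threshold, 40 lost the call, 2 gained it (RUSC1-AS1 as above, and OIP5-AS1 at 0.28 after cyclic loess) and 1 turned. Dim signal limits what can be read from 446 of the 706 antisense genes.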

Other observations

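Other noncoding RNAs were read on the same arrays. A list of 331 measured genes with symbols ending in -AS, -AS2, -AS3, -IT1, -OT1 or -DT, or bearing the name of a known long noncoding RNA, held 60 called in PMA over vehicle without doxycycline (18.1%), 23 higher and 37 lower, beside 31.7% of all genes. With doxycycline 56 were called (16.9%, beside 32.5% of all genes), 25 higher and 31 lower. Of the 331, 196 were dim. Of the 21 listed by name 9 were called without doxycycline (42.9%), and of the 310 listed by suffix 51 (16.5%). Among those listed by name, FTX, a gene of the X-inactivation center, averaged 10.45 ± 0.32 in PMA and 8.96 ± 0.23 in vehicle, a rise of 1.50. MALAT1, a nuclear speckle RNA, averaged 13.04 ± 0.37 in PMA and 12.02 ± 0.40 in vehicle, a rise of 1.02, and LINC-PINT rose by 1.16. DLEU1 fell by 1.39 and DANCR by 1.06. MIR17HG, host of the miR-17-92 microRNA cluster, fell by 1.57 but was dim, with a mean of 4.40 over the 12 arrays. It averaged 3.70 ± 1.02 in PMA and 5.27 ± 0.62 in vehicle. The largest changes were those of METTL14-DT, which averaged 3.65 ± 0.44 in PMA and 6.43 ± 0.34 in vehicle, and MAP4K3-DT, which averaged 8.34 ± 0.26 in PMA and 5.99 ± 0.41 in vehicle (SD, n = 3 each). GAS5, listed by name, differed by 0.05 and was not called.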
